A study of Mus musculus with 6 samples.

Results

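The LY6 family members described here are 8 genes, Ly6a, Ly6c1, Ly6c2, Ly6d, Ly6e, Ly6g, Ly6i and Ly6k, selected by symbol from a table of 55471 mouse gene IDs. All 8 were present in the table. They were compared between blood progenitors with the leukaemia fusion MLL-ENL (genotype MLL-ENL, called ME) and progenitors with LIN28B in addition (genotype LIN28B*MLL-ENL, called L28BME). LIN28B is an RNA-binding protein of fetal cells known for keeping let-7 precursors from being processed. In both groups GMLPs, a progenitor fraction of bone marrow with a Lin-, Kit+, Sca1+, CD48+ and CD150- surface, were sorted and then cultured with DOX (doxycycline) for 3 days before RNA was taken. Both groups therefore carried the fusion and received DOX. There were 3 libraries per group. The age of the mice, the promoters that drive the transgenes and whether libraries came from separate animals are not given in the labels. The p-values therefore describe variation among these libraries, part or all of which may be technical.

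LY6 proteins are small surface proteins built on a cysteine-rich fold of 3 loops, and most are held in the membrane by a glycosylphosphatidylinositol (GPI) lipid anchor rather than by a transmembrane segment. Several are standard markers of blood cells. Ly6a encodes Sca1, which marks stem cells and early progenitors and was part of the sort gate here. Ly6c2 encodes the LY6C antigen that marks monocytes, Ly6g encodes a neutrophil antigen, and Ly6d marks lymphoid progenitors. Ly6e encodes a widely expressed, interferon-inducible member.

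The members lie in 1 cluster on chromosome 15 of GRCm38, from the start of Ly6d at 74762056 to the end of Ly6g at 75159126, a stretch of 397.1 kb. The order along the chromosome is Ly6d, Ly6k, Ly6e, Ly6i, Ly6a, Ly6c1, Ly6c2 and Ly6g. Between Ly6c2 and Ly6g lies Ly6a2, which is no member but is transcribed in these cells. GENCODE M21 lists its ID as a transcribed pseudogene under the name I830127L07Rik, whereas the symbol Ly6a2 is that of the deposited values. None of the members overlaps another gene on its own strand in GENCODE M21, and Ly6k overlaps 1 gene, Gm17189, on the opposite strand.

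Because the members arose by duplication, the sequences show how far the reads of one can be told from those of another. The closest pair by coding sequence was Ly6c1 and Ly6c2, with 93.8% identity over 389 aligned bases, followed by Ly6a and Ly6i with 86.4% over 405. Identity was counted over aligned bases only, so gaps between the sequences were left out. The coding parts of Ly6c1 and Ly6c2 have 444 and 396 bases. Ly6a and Ly6c2 shared 83.6% over 396 aligned bases, and Ly6a and Ly6e 66.3% over 368. The coding part of Ly6a and the Ly6a2 transcript shared 78.9% over 398. The 60-base stretch within 1 exon that held the most differences between the coding parts of Ly6c2 (chr15:75111603-75111662, minus strand, GRCm38) and Ly6c1 (chr15:75048447-75048506, minus strand) is shown here, with the 6 bases that differ in capitals.
Ly6c2: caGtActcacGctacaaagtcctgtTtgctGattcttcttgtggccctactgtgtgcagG
Ly6c1: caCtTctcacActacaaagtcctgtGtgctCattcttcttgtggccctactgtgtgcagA
For Ly6a (chr15:74995399-74995458, minus strand) and the Ly6a2 transcript (chr15:75131812-75131871, minus strand), the same choice of stretch gave 22 differing bases of 60.
Ly6a: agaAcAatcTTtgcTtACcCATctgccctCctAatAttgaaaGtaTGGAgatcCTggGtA
Ly6a2: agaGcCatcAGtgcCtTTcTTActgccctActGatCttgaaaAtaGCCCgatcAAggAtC
In the longest-coding transcript of Ly6c2, 33.0% of all 50-base windows also occurred in a transcript of another gene, and 32.6% occurred in Ly6c1. With 100-base windows the shared part of Ly6c2 was 15.8%. For Ly6a, 10.0% of 50-base windows and 0 of the 100-base windows occurred elsewhere. For Ly6a2 these were 11.3% and 0, and the gene sharing most 50-base windows was Gm5960 (5.14%). The windows of Gm5960 itself were not examined. For Ly6d and Ly6e there were 0 such windows at either length. The labels give no read length, so how the authors' quantification split reads between Ly6c1 and Ly6c2 is uncertain.

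The members spanned a wide range of abundance. Values are TPM, a transcript abundance scaled for transcript length and to a fixed total per library, so that genes can be compared with each other within a library. In ME the order of mean levels was Ly6e, Ly6c2, Ly6d, Ly6a, Ly6g, Ly6c1, Ly6k and Ly6i, and in L28BME it was the same. The libraries of each of the first 5 members lay wholly above those of the next member in both groups, whereas Ly6c1 overlapped with Ly6k and Ly6k with Ly6i. Ly6e alone made up 67.1 to 77.6% of the summed TPM of the 8 members in ME and 59.5 to 78.2% in L28BME. Each of these sums was over 1 library, and they ran from 1024.5 to 1505 TPM in ME and from 549 to 1023 TPM in L28BME.

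**Figure D1:**
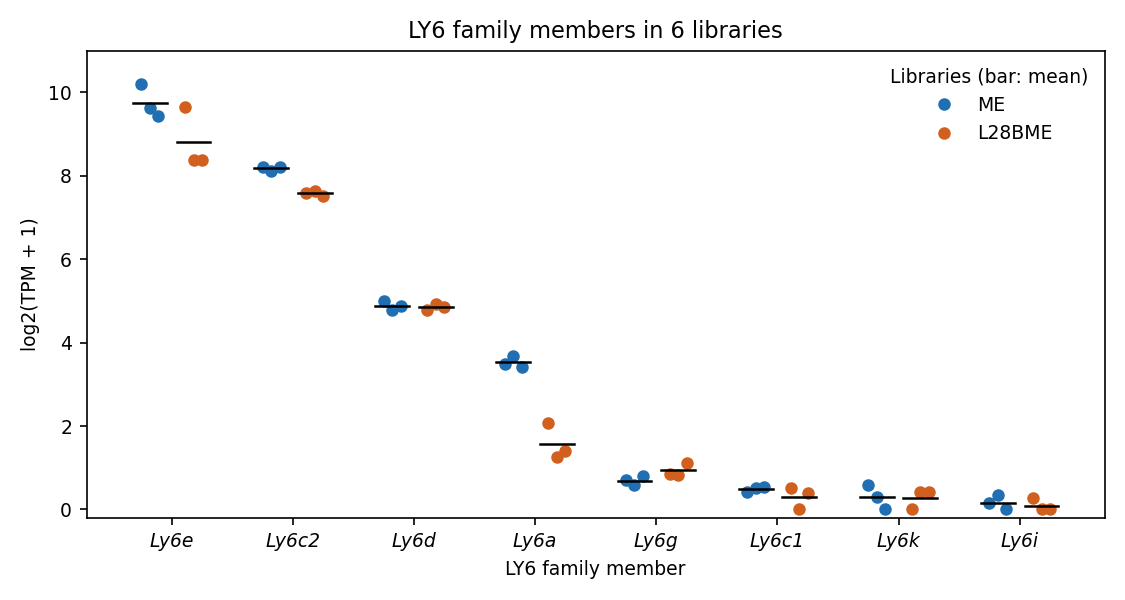
Level of each LY6 member as log2(TPM + 1) in the 3 ME and 3 L28BME libraries, with 1 point per library and a bar at the mean. Ly6a and Ly6c2 are lower in every L28BME library, Ly6e overlaps because 1 L28BME library sits at 800 TPM, Ly6d overlaps fully, and the other 4 members lie near 0.

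Of the 8 members, 4 passed the filter on low values (at least 1 TPM in at least 3 of the 6 libraries), and 2 of these, Ly6a and Ly6c2, were lower in L28BME. None was higher. Over all 13348 genes that passed the filter, 14.9% were called in either direction, 6.6% as lower and 8.28% as higher (limma test of log2(TPM + 1) values, called at a Benjamini-Hochberg p below 0.05). The libraries of the 2 groups did not overlap for 2 of the 4 members tested, against 36.7% of all tested genes. The median log2 fold change of the 4 tested members was -0.77, where that of all tested genes was 0.0033. The filter can keep a gene through 1 group alone, so these 4 do not stand for the family.

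Ly6a, the Sca1 gene, had 10.3, 11.8 and 9.64 TPM in the ME libraries and 3.18, 1.38 and 1.65 TPM in the L28BME libraries. All L28BME libraries lay below all ME libraries, and the highest of them was replicate 1. The mean fell from 10.6 ± 1.09 to 2.07 ± 0.970 TPM (SD, n = 3 per group), or 19.6% of the ME level. The log2 fold change was -1.96 (SE 0.22, adjusted p = 0.00376). Among the genes tested, 33.0% had a lower mean than Ly6a in ME and 9.99% did in L28BME. Its transcript was thus of modest abundance in ME and low in L28BME after the culture, although the cells had been sorted on its protein. The values of L28BME replicates 2 and 3 lay near the filter level of 1 TPM. The other genes of the gate were also read. Cd48 was at 291, 297 and 302 TPM in ME and at 226, 231 and 228 TPM in L28BME, which is -0.38 in log2 (adjusted p = 8.90e-04). Kit, the stem cell factor receptor, was at 76.5 to 106 TPM in ME and 73.2 to 88.4 TPM in L28BME and did not pass the test (adjusted p = 0.311). Slamf1, which encodes CD150, was at or below 0.706 TPM in every library.

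Ly6c2, the LY6C gene, was the member with the smallest adjusted p. It had 294, 275 and 298 TPM in ME and 192, 196 and 183 TPM in L28BME. The lowest ME library lay well above the highest L28BME library, and replicates of a group were close to each other. The mean fell from 289 ± 12.2 to 190.4 ± 6.85 TPM, or 65.9% of the ME level. The log2 fold change was -0.60 (SE 0.045, adjusted p = 9.76e-04). Ly6c1, its closest paralog and a gene of endothelium and some T cells, was at 0.328, 0.426 and 0.460 TPM in ME and at 0.438, 0 and 0.320 TPM in L28BME. It never supplied more than 0.228% of the summed TPM of the pair. With the TPM of both genes summed, the log2 fold change was -0.60 (SE 0.044, adjusted p = 9.43e-04).

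Ly6e was the most abundant member and varied widely within both groups. It had 1168, 794 and 687 TPM in ME and 800.2, 335 and 334 TPM in L28BME. L28BME replicate 1 lay between the ME libraries, whereas replicates 2 and 3 lay below all of them and were nearly equal to each other. The means were 883 ± 252 and 489.8 ± 269 TPM, a log2 fold change of -0.94 (SE 0.39), and the difference did not pass the test (adjusted p = 0.169). Without L28BME replicate 1 it did, with a log2 fold change of -1.36 and an adjusted p of 0.0306. Without any other 1 library the adjusted p was 0.204 to 0.342. Among the 2018 genes with a mean of at least 100 TPM over all libraries, Ly6e ranked 17th by its spread within groups, with an SD of 0.58 on the log2 scale where the median of those genes was 0.054. Replicate 1 was the highest library of both groups, as was the case for 12.5% of all tested genes. GENCODE M21 lists 16 transcripts of Ly6e with lengths from 431 to 2281 bases. The deposited table gives 1 value per gene, so the share of each transcript in these values was not tested.

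Ly6d, the marker of lymphoid progenitors, did not differ beyond its spread. It had 30.9, 26.7 and 28.4 TPM in ME and 26.7, 29.4 and 28.04 TPM in L28BME, and the libraries of the groups were fully interleaved. The means were 28.7 ± 2.07 and 28.04 ± 1.37 TPM, a log2 fold change of -0.030 (SE 0.070, adjusted p = 0.819).

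The remaining 3 members, with Ly6c1, did not pass the filter and are described by their levels only. Ly6g, the neutrophil antigen gene, had 0.620, 0.4999 and 0.743 TPM in ME and 0.800, 0.785 and 1.18 TPM in L28BME. Every L28BME library was above every ME library, at a level around or below 1 TPM. When all genes above 0 in any library were tested instead, Ly6g had a log2 fold change of 0.24 (SE 0.11) and did not pass (adjusted p = 0.327). Ly6i, a member found on macrophages, was listed at 0 in 1 ME library and 2 L28BME libraries and did not exceed 0.264 TPM. Ly6k, a gene of male germ cells, was listed at 0 in 1 library of each group and did not exceed 0.503 TPM. In the same test without a filter, Ly6c1, Ly6i and Ly6k had adjusted p of 0.594, 0.795 and 0.984. The depth behind such values is unknown because TPM carry no counts.

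**Figure D2:**
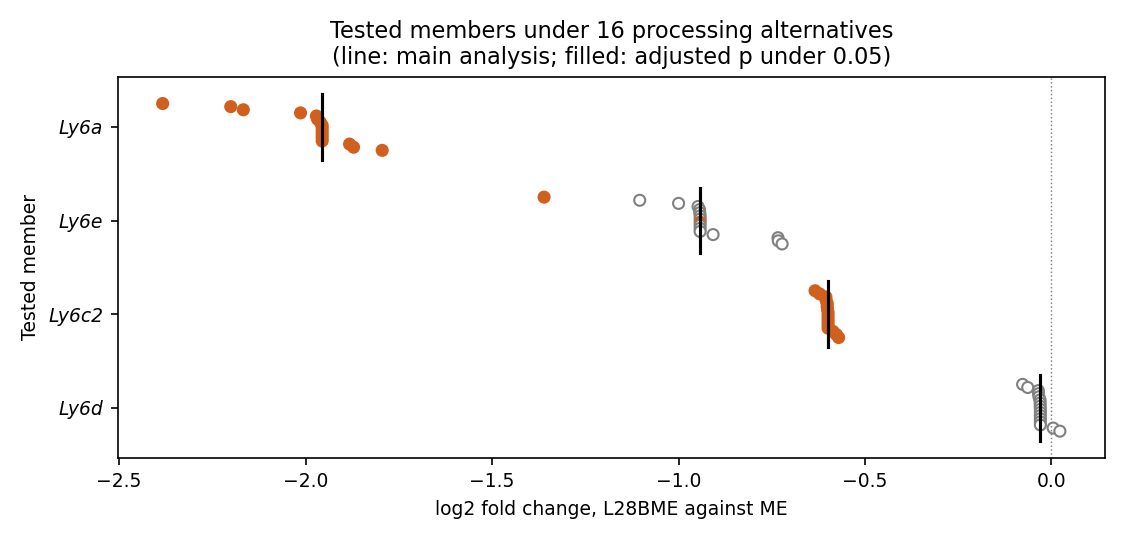
Log2 fold change of the 4 tested members under 16 alternatives of processing, with 1 point per alternative, a line for the main analysis and filled points where the adjusted p was under 0.05. Ly6a and Ly6c2 are filled under all 16, Ly6e under 2, and Ly6d lies on both sides of 0.

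Other genes of the cluster and its flanks were compared in the same test. Apart from members, 3 genes inside the cluster passed the filter. Ly6a2, a transcribed pseudogene by GENCODE M21, had 73.9, 66.1 and 61.2 TPM in ME and 36.6, 35.1 and 38.98 TPM in L28BME. No library of one group reached the range of the other, and the level in ME was above that of Ly6a itself. The log2 fold change was -0.84 (SE 0.080, adjusted p = 0.00205). Gm5960, an unprocessed pseudogene between Ly6c1 and Ly6c2, fell from 11.05 ± 1.17 to 6.13 ± 1.03 TPM, a change of -0.76 in log2 (adjusted p = 0.0146). Its call was lost without ME replicate 3 (adjusted p = 0.0506) and without L28BME replicate 3 (adjusted p = 0.0531). Gm39556, a long noncoding RNA gene near Ly6e, did not pass (log2 fold change -0.39, adjusted p = 0.161). Of the 3 nearest tested genes on each side of the cluster, 0 were called: Jrk, Them6 and Lynx1 before it and 9030619P08Rik, Zfp41 and Top1mt after it had log2 fold changes of -0.40 to -0.085, all below 0, and adjusted p of 0.0695 to 0.654. Without ME replicate 1, Them6 was called (adjusted p = 0.0466). Among all tested genes, 14.9% were called in either direction.

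**Figure D3:**
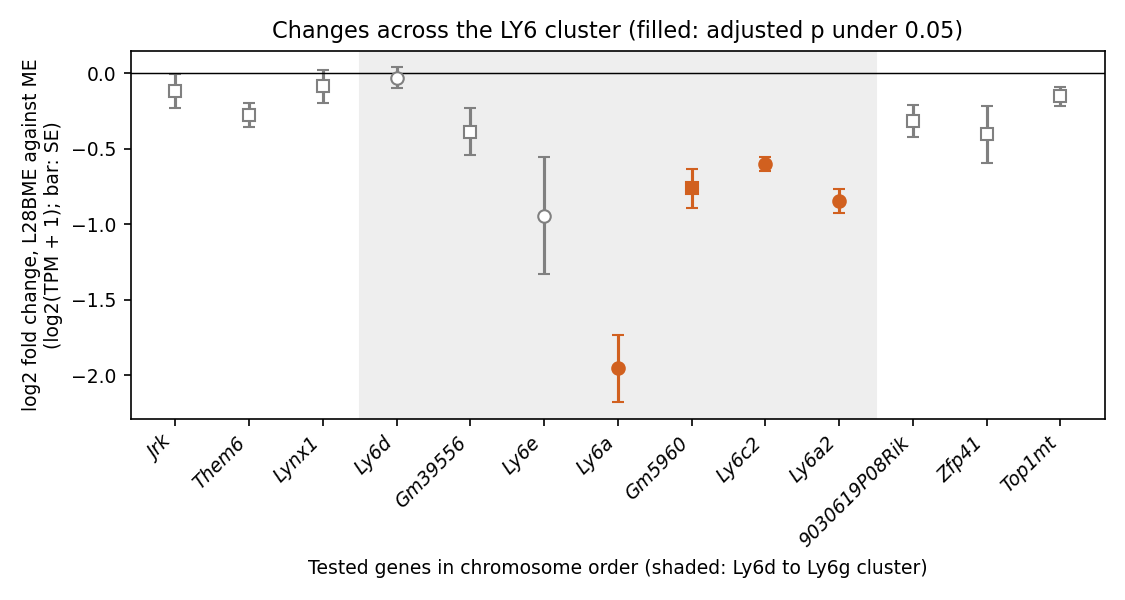
Log2 fold change (L28BME against ME, bars are SE) of every tested gene from 3 before to 3 after the LY6 cluster, in chromosome order, filled where the adjusted p was under 0.05 and with circles for LY6 symbols. The called genes Ly6a, Gm5960, Ly6c2 and Ly6a2 are consecutive tested genes, and the flanking genes lie between -0.40 and -0.085. Related genes here share some sequence, so how far their values are separate measurements is uncertain.

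The changes of the called genes were then compared with each other. The log2 fold change of Ly6a minus that of Ly6a2 was -1.11, and minus that of Ly6c2 it was -1.36. In each case the within-library difference separated the groups fully (exact permutation test over libraries, two-sided, p = 0.1, the smallest that 3 against 3 allows). For Ly6a2 minus Ly6c2 the difference was -0.24 (exact permutation p = 0.2).

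Promoters from RefSeq on GRCm38.p6 were available for 3 of the 8 members, Ly6c1, Ly6c2 and Ly6g, and for Ly6a2. They are shown, for 1 of the start sites that the table lists, for the called pair Ly6c2 and Ly6a2 and for Ly6c1, which was near 0 TPM, to show the near identity of the first pair beside a close paralog. Each runs from 250 bases before the start site to 50 bases after it, on the minus strand of chromosome 15. Capitals mark matches on either strand to the ETS core GAGGAA, the TATA box TATAAA and the CCAAT box CCAAT.
Ly6c2 (chr15:75111922-75112221): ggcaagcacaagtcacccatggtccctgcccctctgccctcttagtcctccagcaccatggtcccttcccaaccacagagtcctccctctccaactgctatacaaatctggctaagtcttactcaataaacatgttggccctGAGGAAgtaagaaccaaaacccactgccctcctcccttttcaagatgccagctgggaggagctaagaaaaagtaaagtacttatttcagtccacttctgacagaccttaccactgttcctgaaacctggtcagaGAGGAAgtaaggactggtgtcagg
Ly6a2 (chr15:75135079-75135378): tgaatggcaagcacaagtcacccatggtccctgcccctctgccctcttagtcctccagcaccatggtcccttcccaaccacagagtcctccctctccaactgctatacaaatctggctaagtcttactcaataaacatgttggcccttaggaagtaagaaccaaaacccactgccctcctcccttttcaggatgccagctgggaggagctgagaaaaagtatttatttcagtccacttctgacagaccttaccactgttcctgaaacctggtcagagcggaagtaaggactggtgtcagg
Ly6c1 (chr15:75048788-75049087): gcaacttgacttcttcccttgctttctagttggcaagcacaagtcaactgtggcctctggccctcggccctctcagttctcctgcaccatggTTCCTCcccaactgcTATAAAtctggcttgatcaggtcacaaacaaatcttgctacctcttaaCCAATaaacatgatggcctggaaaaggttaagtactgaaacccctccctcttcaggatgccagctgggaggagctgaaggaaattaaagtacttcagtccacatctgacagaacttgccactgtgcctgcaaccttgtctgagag
The Ly6c2 and Ly6a2 promoters were identical at 290 of 295 aligned bases (98.3%), and those of Ly6c2 and Ly6c1 at 208 of 266 (78.2%). Gaps were left out of these counts, and the printed Ly6c2 and Ly6a2 sequences also differ by a gap. Ly6c2 held 2 GAGGAA matches and no TATA or CCAAT match, and Ly6c1 held 1 of each motif. Ly6a2 held none of these motifs, although the shorter GGAA occurs in its printed sequence. The other available Ly6c1 promoter held 2 GAGGAA matches and no TATA or CCAAT match, as Ly6c2 did. It was identical to the Ly6c2 promoter shown at 124 of 143 aligned bases (86.7%). The same letters occurred in 28.3% (GAGGAA), 13.6% (TATA box) and 37.4% (CCAAT box) of all 32851 promoters of this length. The gamma-activated site (8.30% of all promoters) and the interferon-stimulated response element (3.44%) had no match in any promoter of Ly6c1, Ly6c2, Ly6g or Ly6a2. A match, or its absence, describes the letters of this window only.

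The let-7 seed match was sought in 3′ UTRs because let-7 microRNAs are the best known target of LIN28B. Neither the match CTACCTC nor its core TACCTC occurred in the longest annotated 3′ UTR of any of the 8 members. These UTRs had 1192 bases in Ly6e but only 90 (Ly6k) to 389 (Ly6c1) bases in all other members. Among the 10882 tested genes with an annotated 3′ UTR, 10.5% held the 7-base match and 26.4% the 6-base core, in UTRs with a median of 1152 bases. Apart from Ly6e, the UTRs of the members were much shorter than that, so these shares are not for UTRs of like length.

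Other genes of the LY6/uPAR (LU) fold, among them Lynx1 beside the cluster, were mostly listed at 0. Of 38 such genes, 37 were found (Lypd8l was not matched), and 26 were listed at 0 in every library. The filter was passed by 5, of which 1 was lower and 0 were higher in L28BME. Over all tested genes, 6.6% were called lower and 8.28% higher. The lower one was Cd177, a neutrophil surface protein gene, with 3.00, 2.56 and 1.71 TPM in ME and 0.611, 0.230 and 0.622 TPM in L28BME, which is -1.19 in log2 (adjusted p = 0.0133). Its call was lost without ME replicate 2 (adjusted p = 0.0534). Plaur, the urokinase receptor gene, was at 29.8 to 38.2 TPM in ME and 31.9 to 42.0 TPM in L28BME (adjusted p = 0.640). Cd59a, an inhibitor of complement, Lynx1, a modulator of nicotinic receptors, and Ly6g5b were at means of 1.13 to 4.12 TPM in either group and did not pass.

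GPI anchor genes, which build and attach the lipid that holds most LY6 proteins, showed small changes in both directions. Of 28 tested, 3 were higher and 2 lower, with a median log2 fold change of 0.11. Over all tested genes, 8.28% were called higher and 6.6% lower. Pigk, a subunit of the transamidase that attaches the anchor, fell from 39.9 ± 0.432 to 32.6 ± 0.448 TPM, which is -0.29 in log2 (adjusted p = 0.00690). Without any 1 library, 0 or 1 gene was called higher and 1 or 2 lower. Of the 4 genes of this list with the smallest p, Pigk kept its call whichever library was left out.

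Interferon genes were read because Ly6a and Ly6e are known interferon-inducible genes. Of 35 tested receptors, mediators and targets, 3 were higher and 7 lower, with a median log2 fold change of -0.015. The shares over all tested genes were 8.28% higher and 6.6% lower. Ifitm3, an antiviral membrane protein gene, fell from 649.9 ± 20.7 to 519.5 ± 7.30 TPM, which is -0.32 in log2 (adjusted p = 0.00233). The 3 higher genes were Ifitm1, Jak2 and Gbp7, with log2 fold changes of 0.099, 0.27 and 0.30 (adjusted p = 0.0351, 0.0339 and 0.0244). Isg15, a classical target, was at 1.40 to 3.26 TPM and 1.27 to 3.97 TPM (adjusted p = 0.946). The counts fell whichever library was left out, to 0 or 1 gene called higher and 1 or 2 lower. Calls over all tested genes fell as well. They went from 1105 higher and 881 lower to 617 to 693 higher and 461 to 582 lower.

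**Figure D4:**
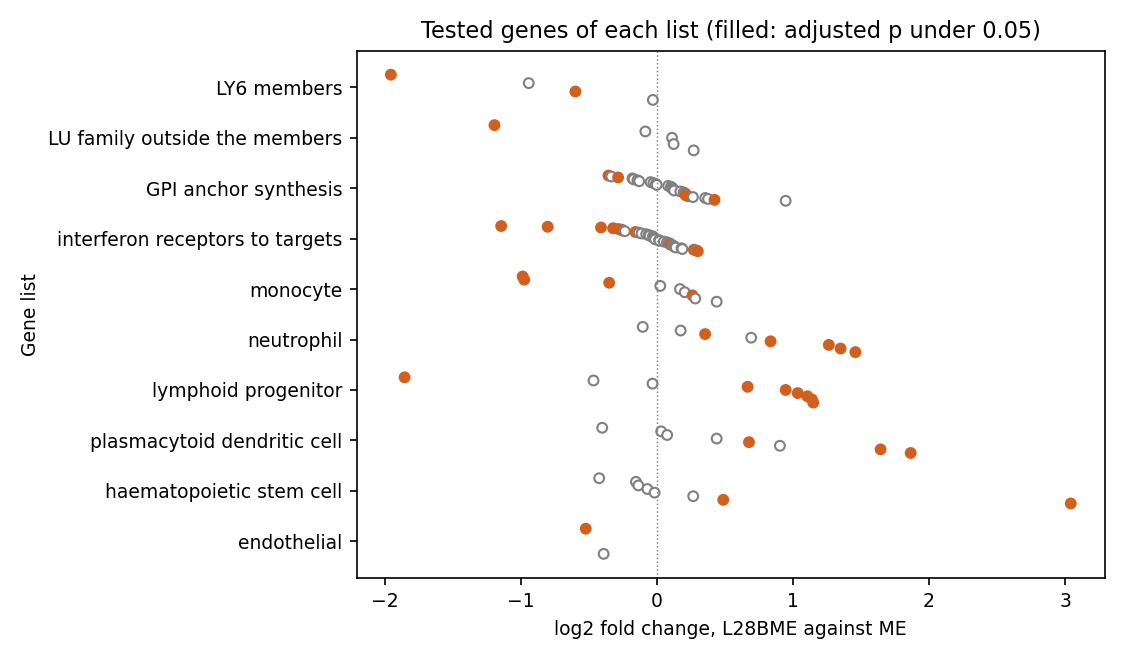
Log2 fold change (L28BME against ME) of each tested gene, 1 point per gene, in the LY6 members and in lists of related genes and cell type markers, filled where the adjusted p was under 0.05. The tested LY6 members lie at or below 0, while neutrophil and lymphoid progenitor genes lie mostly above 0.

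Marker genes of the cell types that carry LY6 antigens moved in their own ways beside the members. The counts below stand beside 8.28% called higher and 6.6% called lower over all tested genes. For monocytes, where LY6C is high, 3 of 9 tested markers were lower and 1 was higher, with a median log2 fold change of 0.17. The 5 not called, Irf8, Klf4, Fcgr1, Cx3cr1 and S100a4, had log2 fold changes of 0.025 to 0.44, all above 0. The list thus did not move as a whole in 1 direction. Ccr2, a chemokine receptor of monocytes, fell from 20.2, 20.7 and 24.4 TPM to 10.4, 11.3 and 9.70 TPM, and Ms4a6c and F13a1 fell as well. Csf1r rose, with a call lost without any 1 library (adjusted p = 0.0621 to 0.0925). The summed TPM of the 10 monocyte markers was 496 to 508 in ME and 489 to 522 in L28BME. Most of each sum was S100a4, a calcium-binding protein gene, at 344 to 356 TPM in ME and 351 to 356 TPM in L28BME. For neutrophils, which carry LY6G, 5 of 8 tested markers were higher and 0 lower, and the sum of 10 markers was 234 to 245 TPM in ME and 555 to 583 TPM in L28BME. Most of each sum was S100a8 and S100a9, at means of 93.8 and 85.7 TPM in ME and 241 and 237 TPM in L28BME. Lcn2, also on the list, had means of 22.5 and 21.2 TPM and did not pass the test (adjusted p = 0.725). Retnlg, a gene of mature neutrophils, was listed at 0 in all libraries but 1. For lymphoid progenitors, which carry LY6D, 6 of 9 were higher and 1 lower, and the sum of 12 markers was 132 to 138 TPM in ME and 261 to 264 TPM in L28BME. Flt3, a cytokine receptor gene, supplied 92.6 to 100.5 TPM of it in ME and 185 to 189 TPM in L28BME. The lower gene was Dntt, at 3.06, 2.42 and 2.41 TPM in ME and listed at 0 in every L28BME library (adjusted p = 6.81e-04). Plasmacytoid dendritic cell genes had 3 of 8 higher and stem cell genes 2 of 8 higher, with 0 lower in either list. Without any 1 library, 2 or 3 of the dendritic cell genes and 1 or 2 of the stem cell genes were higher, and 1 stem cell gene was lower without L28BME replicate 1. Of the lineage markers of mature cells, Cd3e and Cd8a were listed at 0 in every library, and Cd4 and Klrb1c did not exceed 0.107 TPM. Ptprc, the pan-leukocyte CD45 gene, was at 115 to 150 TPM and did not pass the test. Itgam, the CD11b gene of myeloid cells, was at 41.8, 38.1 and 43.5 TPM in ME and at 13.6, 18.3 and 6.75 TPM in L28BME, which is -1.70 in log2 (adjusted p = 0.0208). That call was lost when gene models sharing exonic bases were summed (log2 fold change -0.0014, adjusted p = 0.994) and without any 1 ME library or L28BME replicate 1 (adjusted p = 0.0576 to 0.0713). Among endothelial markers, Pecam1, which blood cells also express, was lower (log2 fold change -0.52), and Tie1 was at 9.90 to 13.2 TPM in ME and 7.39 to 9.05 TPM in L28BME without overlap and did not pass the test. Cdh5 and Kdr did not exceed 0.133 TPM. In bulk RNA, fewer cells of a type and less RNA per cell cannot be told apart, and the part of cell composition in the changes of Ly6a and Ly6c2 was not tested.

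Genes with the pattern most like that of each called member were found by the distance between centred log2(TPM + 1) values over the 6 libraries. Closest to Ly6a were Cd300c, an immune receptor gene, H2-Aa, an MHC class II chain gene, and Bpifc, at distances of 0.607, 0.685 and 0.744. Closest to Ly6c2 were Creb3l2, a transcription factor gene, Abhd5, a regulator of lipid breakdown, and Abcg2, an efflux pump gene, at 0.108, 0.109 and 0.116. For Ly6e, which was not called and was added after its values were seen, the closest were Pttg1ip, Pex26 and Msra at 0.563 to 0.689. Pttg1ip was at 86.4, 28.2 and 28.9 TPM in the L28BME libraries and Msra at 32.9, 13.6 and 13.8 TPM, so that replicate 1 stood apart in the same direction as for Ly6e. With 6 libraries in 2 groups, likeness of this kind follows mainly from the difference between groups and from single libraries.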

How the data were processed

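The deposited values are TPM per gene and library, made by the authors. Per the submitters' processing notes, bcl2fastq, HISAT2, StringTie and DESeq2 were used with GRCm38. Tool versions, and whether strand was used in counting, are not given there. Per the labels' protocols, libraries were made with a TruSeq Stranded mRNA kit. The 60496 entries were reduced to 55471 gene IDs, and TPM summed to 999919 to 999996 per library. From 13215 to 13288 genes per library had at least 1 TPM.

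Genes with at least 1 TPM in at least 3 of the 6 libraries were analysed as log2(TPM + 1) by limma (version 3.58.1, under R 4.3.3) using its trend option, two-sided tests and Benjamini-Hochberg adjustment over 13348 genes. TPM are not counts, so depth is unknown and count models were not used. A fold change on this scale understates the change of low genes. Lin28b was listed at 0 in ME and at 11.2 to 11.9 TPM in L28BME. The procedure was tested on simulated data. The members and lists were chosen with earlier results of these data known. Named genes were the members, tested LU-fold relatives, tested genes in the cluster and the 3 nearest on each side, up to 4 genes of each list with the smallest p, and for each called member the 3 nearest genes with at least 5 TPM in the higher group. Other genes, and the ETS, TATA and CCAAT motifs, were chosen after values were seen. Gene models and transcripts came from GENCODE M21 and were matched by ID, promoters from RefSeq. The alternatives changed the pseudocount, filter, scaling or limma settings, summed overlapping gene models, added a term for replicate number, or left out 1 library. Other tools were Python 3.11.15, numpy 2.4.6, pandas 2.3.3, Biopython 1.88 and matplotlib 3.10.9.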

Additional observations from a re-analysis of the deposited data

How the results depend on the processing

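The number of members called as lower was 2 under 14 of 16 alternatives and 3 under the other 2, and 0 members were called as higher under any. Ly6a had log2 fold changes of -2.38 to -1.79 and Ly6c2 of -0.63 to -0.57, with adjusted p of at most 0.0289 and 0.0207. Without 1 library each in turn, 617 to 693 genes were called higher and 461 to 582 lower over all genes. In the same fits the Ly6c1 and Ly6c2 sum had log2 fold changes of -0.63 to -0.57. Nearly all of that sum was Ly6c2, so it adds no separate result. With a replicate block, 548 genes were called higher and 400 lower. Under it Ly6e was called (adjusted p = 0.0484), and calls were lost for Gm5960 (0.0517), Cd177 (0.0541), F13a1 (0.0506), Csf1r (0.105) and Itgam (0.0627), all as adjusted p. Deviations of equally numbered libraries correlated at -0.074 to -0.032 and no library correlated best with its own number, so the numbers were not treated as pairs. Without 1 library each, the sign turned for uncalled genes, with log2 fold changes of -0.077 to 0.023 for Ly6d, -0.063 to 0.30 for Ly6g5b, -0.0080 to 0.22 for Plaur, -0.066 to 0.0071 for Gng10, -0.073 to 0.025 for Tial1 and -0.0998 to 0.020 for Cep57. The cause was not tested. Members below 1 TPM cannot be compared, since TPM carry no depth.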
